A study of Mus musculus with 32 samples.

Results

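The 10 genes described here encode peptide transmitters and one secreted granin of the spinal dorsal horn: Penk, Pdyn, Tac1, Tac2, Sst, Npy, Vgf, Nts, Cck and Grp. They were taken by symbol from a table of 55938 genes, and were chosen by their measured Input values, since earlier results of these data had shown higher whole-cord levels of peptide transcripts after injury. The libraries came from homogenised lumbar spinal cord of mice that all carried Aldhl1l-CreER, written so in the labels, and Rpl22-HA, which puts an HA tag on the ribosomes of cells in which the astrocyte driver is active. Uninjured mice and mice 3, 5 or 7 weeks after a fracture, used as a model of complex regional pain syndrome, were compared in both sexes. The 8 Input libraries hold RNA of all cord cells, 1 library for each sex and state, and the 24 Trap libraries hold RNA pulled down with the tagged ribosomes, 3 for each sex and state. The labels used here do not give the age of the mice and name no dissection of the dorsal horn, and the libraries held ventral cord too, as the motor neuron marker Slc5a7 shows at 101 ± 30.8 CPM (counts scaled to library size, mean with SD over the 8 Input libraries). Whether each library is a different animal is not stated, so the p-values cover the spread among libraries only.

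Dorsal horn neurons make peptides as long precursors, which are sorted with granins into dense-core vesicles, cut by convertases and released when the neuron fires strongly. Enkephalin, dynorphin, somatostatin and neuropeptide Y are known for damping the relay of pain signals, although dynorphin can also promote pain. Substance P, neurokinin B, neurotensin, cholecystokinin and gastrin-releasing peptide mark sets of mostly excitatory interneurons. Astrocytes are not the main source of these peptides in the cord, so the Input libraries are where neuronal transcripts can be read, and the Trap libraries serve as contrast.

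Several of the 10 genes were high in the same libraries, so the sequence before their RefSeq starts is shown. Promoters of 7 of the 10 were found in the RefSeq table (GRCm38.p6). The following stretches, 5′ to 3′ on the strand of the gene, show the cAMP response element or its core, and the promoters of Pdyn and Npy without either. The element is a motif long studied in the somatostatin gene. Capitals mark each core of the element, TGACG or CGTCA. Given are 100 bases directly before the RefSeq start, or 30 bases around a core for Sst and Tac1. The stretches of Sst and Tac1 lie before the RefSeq start but inside the gene span of the annotation used for the coordinates below.
Sst, chr16:23890874-23890903, minus strand: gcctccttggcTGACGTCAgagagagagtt
Tac1, chr6:7555005-7555034, plus strand: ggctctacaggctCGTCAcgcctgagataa
Cck, chr9:121495695-121495794, minus strand: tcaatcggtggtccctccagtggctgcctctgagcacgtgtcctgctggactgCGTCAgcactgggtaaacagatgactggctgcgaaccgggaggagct
Pdyn, chr2:129699939-129700038, minus strand: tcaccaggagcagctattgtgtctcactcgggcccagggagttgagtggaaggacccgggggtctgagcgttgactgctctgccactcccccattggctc
Npy, chr6:49822610-49822709, plus strand: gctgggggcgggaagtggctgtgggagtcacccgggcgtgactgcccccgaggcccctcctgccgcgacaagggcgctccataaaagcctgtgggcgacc

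Windows of 250 bases before to 50 after the RefSeq start were searched on both strands. In them the full element TGACGTCA stood in Sst alone among the 7, with its first base at -48 from that start. It was present in 1.79% of the 32851 promoters of the table. A core, which the full element contains, stood in 4 of the 7 (Sst, Tac1, Cck and Nts) and in 20.8% of all promoters. Cck holds a core at -47, and Pdyn and Npy hold none in this window. Tac1 holds cores at -43, shown above, and at -197. A relation of the element to the measured levels was not tested. The TATA box letters TATAAA, the only other motif searched, stood in 0 of the 7 windows and in 13.6% of all promoters. For Pdyn, with 2 promoters in the table, the one nearest the annotated gene start was used. A match is only a run of letters and shows no binding.

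Levels in the whole cord spanned a wide range before any injury is considered. Per kilobase of exon, Sst was highest with a median of 114 CPM per kb over the 8 Input libraries (range 89.1 to 161), followed by Penk at 88.3 (64.4 to 161) and Vgf at 81.8 (64.0 to 142). These top 3 ranges overlapped, but they pool sexes and states. Within single libraries Sst was above Vgf throughout, and above Penk except in the male 3-week library (160.9 against 161.3). The order of Penk and Vgf changed between libraries. They stood at 64.4 and 64.0 in the uninjured female library and at 75.6 and 76.9 in the female 5-week library. Cck (25.2), Npy (21.6) and Nts (13.2) formed a middle group, and Tac2 (9.41), Pdyn (7.13), Tac1 (7.02) and Grp (4.88 CPM per kb) were lowest. All 10 genes passed the filter on low counts in Input.

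At 3 weeks after fracture the whole cord held more RNA of every one of the 10 genes than the uninjured cord of the same sex. In the fit over both sexes the fold at 5 weeks was smaller than at 3 weeks for 10 of 10, but in males Cck was higher at 5 weeks (39.5 CPM) than at 3 weeks (37.4 CPM). The fitted fold was 2.72 for Pdyn, 2.07 for Tac1, 1.99 for Vgf, 1.95 for Npy and 1.88 for Penk. It was 1.51 for Sst and 1.47 for Grp, and smallest for Nts, Tac2 and Cck (1.23, 1.19 and 1.11). These injury contrasts in Input chose the genes, and their values are therefore given as a description without a test.

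**Figure D1:**
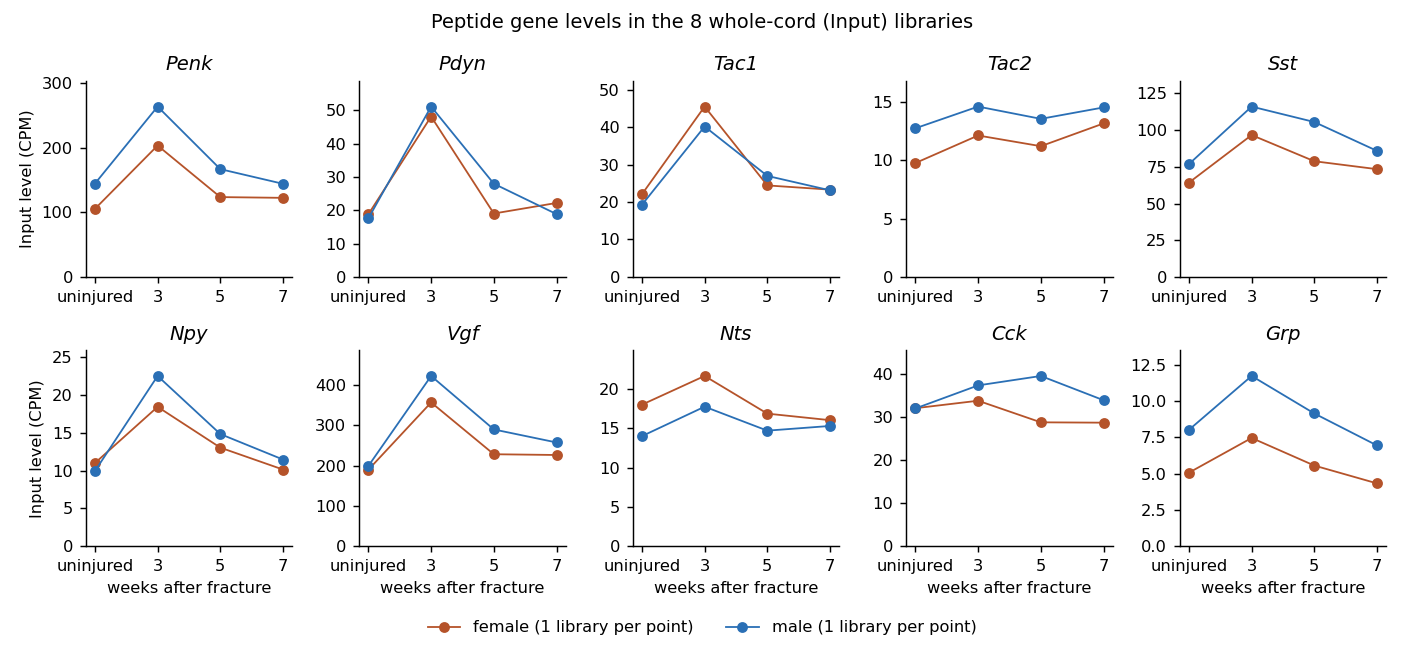
Level of each gene (y axis, CPM, starting at 0) in the 8 Input libraries by weeks after fracture (x axis), 1 point per library, females in orange and males in blue, with lines joining the libraries of one sex. In 5 of the 10 panels both 3-week points lie above all other points.

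The opioid precursors come first. Pdyn, on chromosome 2 at 129686565 to 129699844 of GRCm38, encodes prodynorphin, the source of the kappa opioid ligands. In females it stood at 18.8 CPM without injury and at 48.1, 19.0 and 22.2 CPM at 3, 5 and 7 weeks, and in males at 17.6, 51.1, 27.9 and 18.8 CPM. Both 3-week libraries were thus far above the other 6, and the female library of 5 weeks was already at its uninjured level while the male one was not. The log2 fold change at 3 weeks was 1.45 ± 0.141 (standard error of the fit, 2 libraries per state).

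Penk, on chromosome 4 at 4133531 to 4138819, encodes proenkephalin, whose peptides act on delta and mu opioid receptors. Without injury it stood at 105 CPM in females and 144 CPM in males, and at 3 weeks at 203 and 264 CPM. At 5 and 7 weeks it stood at 124 and 122 CPM in females and at 167 and 144 CPM in males. Male libraries were higher than female ones in every state, and the excess at 3 weeks was 1.93-fold in females and 1.83-fold in males. The log2 fold change was 0.91 ± 0.0627 at 3 weeks, 0.22 ± 0.0638 at 5 weeks and 0.10 ± 0.0645 at 7 weeks, when it ranged from 0.014 to 0.20 with 1 library left out.

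Among the excitatory peptides the substance P precursor had the largest fold. Tac1, on chromosome 6 at 7554879 to 7565834, measured 22.1, 45.5, 24.4 and 23.3 CPM in females in the order uninjured, 3, 5 and 7 weeks, and 19.3, 40.2, 27.0 and 23.1 CPM in males. The 3-week libraries did not overlap with any other, and the log2 fold change was 1.05 ± 0.0998. Its relative Tac2, the neurokinin B precursor, showed no such peak. Tac2 measured 9.77, 12.1, 11.2 and 13.2 CPM in females and 12.8, 14.6, 13.6 and 14.5 CPM in males. Its largest fold lay at 7 weeks, at 0.30 ± 0.133 on the log2 scale against 0.25 ± 0.129 at 3 weeks, and in females the 7-week library was the highest.

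The remaining excitatory peptides had smaller folds. Grp, the itch-related peptide, went from 5.07 to 7.47 CPM in females and from 8.02 to 11.7 CPM in males at 3 weeks, a log2 fold change of 0.55 ± 0.156, although the female 3-week library stayed under the uninjured male one. At 7 weeks both Grp libraries were below their uninjured level, at 4.33 and 6.95 CPM (-0.22 ± 0.182). Nts, the neurotensin precursor, went from 18.0 to 21.7 CPM in females and from 14.0 to 17.8 CPM in males at 3 weeks (log2 0.30 ± 0.114). By 5 and 7 weeks Nts was within 0.03 log2 units of uninjured. Cck, the cholecystokinin precursor, was the flattest gene, at 32.1, 33.8, 28.8 and 28.7 CPM in females and 32.01, 37.4, 39.5 and 33.9 CPM in males, with a log2 fold change of 0.15 ± 0.101 at 3 weeks.

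Of the peptides of inhibitory signalling, Npy, on chromosome 6 at 49822710 to 49829507, encodes neuropeptide Y. It measured 10.98, 18.4, 13.0 and 10.1 CPM in females and 9.93, 22.5, 14.8 and 11.5 CPM in males. The 3-week values exceeded all others, with a log2 fold change of 0.97 ± 0.129. At 7 weeks the fitted fold was 0.04 ± 0.150, with the female library below and the male library above the uninjured one of its sex, and it ranged from -0.14 to 0.23 when 1 library was left out. Sst, on chromosome 16 at 23889573 to 23890958, encodes somatostatin, which acts as an inhibitory peptide although many of the cells that make it are excitatory. Sst measured 64.2, 96.6, 78.8 and 73.4 CPM in females and 76.9, 116, 106 and 85.9 CPM in males. Sst kept more of its difference, with 63.9% of the 3-week log2 fold of 0.59 ± 0.0685 left at 5 weeks, when the male library still exceeded the female library of 3 weeks.

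Vgf, on chromosome 5 at 137026392 to 137033351, encodes a granin-like precursor whose fragments are released with other peptides and which nerve growth factor induces. It was at 190, 357, 229 and 226.6 CPM in females and at 200, 423, 290 and 258 CPM in males. Every library after fracture exceeded both uninjured libraries, and both 3-week libraries exceeded all others. The log2 fold change was 0.99 ± 0.0617 at 3 weeks, 0.40 ± 0.0621 at 5 weeks and 0.31 ± 0.0624 at 7 weeks.

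Taking the 10 genes together, both 3-week libraries lay above all 6 others for 5 genes (Penk, Pdyn, Tac1, Npy and Vgf), a pattern held by 2.47% of the 16803 genes tested in Input. Both libraries of a time lay above both uninjured libraries for 7 genes at 3 weeks, 5 at 5 weeks and 4 at 7 weeks, beside 11.3%, 9.99% and 9.76% of all genes. The median log2 fold change over the 10 fell from 0.75 at 3 weeks to 0.27 at 5 and 0.14 at 7 weeks, against a median within 0.01 of 0 for all genes at each time. The number of members above 0 was 10, 9 and 7 at the 3 times, beside 48.3%, 49.1% and 48.4% of all genes. Because the genes were picked for this contrast, the counts only describe them, and the 3 comparisons share the 2 uninjured libraries. In bulk tissue, fewer or more cells of a type and less or more RNA per cell cannot be told apart.

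**Figure D2:**
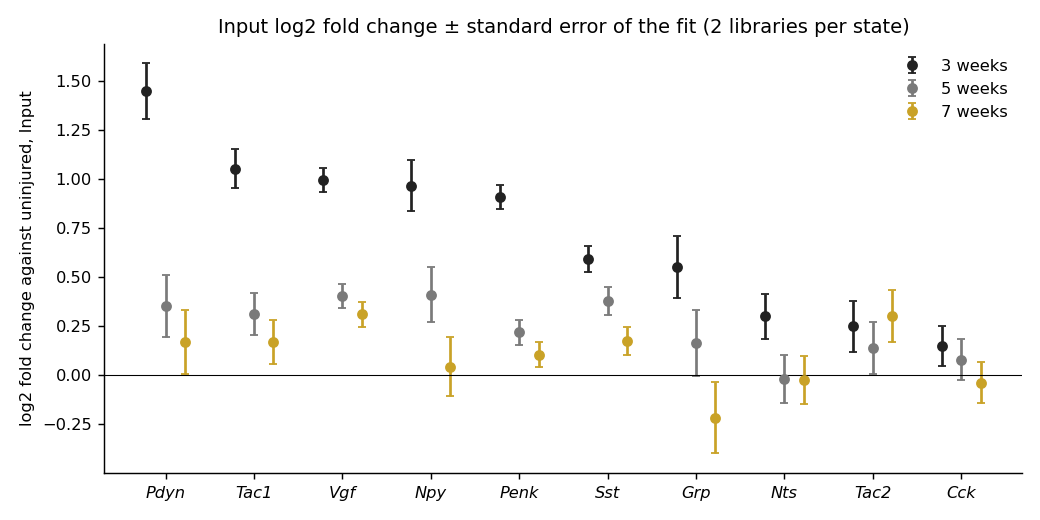
Log2 fold change against uninjured in Input (y axis) for the 10 genes (x axis, ordered by the 3-week value) at 3, 5 and 7 weeks, with bars of 1 standard error of the fit. Pdyn is highest at 1.45, and the 3-week point lies above the later ones for every gene but Tac2.

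The shapes over the 8 libraries were compared by the root mean square difference of log2 CPM after each gene was centred on its own mean. Npy and Vgf were the closest pair of members at 0.131, next to Penk and Vgf at 0.133. Pdyn, with the widest swing, was nearest to Tac1 at 0.216. Outside the 10, a search of 13294 genes found for Penk the endopeptidase gene Ecel1 (0.111) and Vwf (0.113), for Tac1 the receptor tyrosine kinase gene Alk (0.114), and for Npy the nociceptin precursor Pnoc (0.111). The genes most like Sst were the release-machinery genes Stx1a (0.0667) and Ptprn (0.0839), and that most like Vgf was Vwf (0.0915), which encodes an endothelial clotting protein. For Cck, whose shape was nearly flat, Trim27 (0.0257) was nearest, and for Grp, Loxl1 (0.111). All of these distances rest on 8 libraries that also share sex and depth.

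Other peptide precursors were read from a list of 28 further genes, of which 17 passed the filter. This list and the gene lists below were chosen with earlier results of these data known, which had shown higher peptide transcripts in Input. The same Input libraries were used to choose the peptide genes above, so the calls and adjusted p-values are not independent support. Without sex in the model edgeR called no gene of this list. In Input at 3 weeks 6 of the 17 rose at an adjusted p under 0.05 (edgeR) and none fell, beside 0.434% of all genes that rose, and the median log2 fold change of the list was 0.68. Gal, which encodes galanin, measured 4.05 CPM in the uninjured female and 5.24 CPM in the uninjured male library, and 14.1 and 19.6 CPM at 3 weeks. Its log2 fold change was 1.86 ± 0.157 (edgeR adjusted p = 5.21e-06). Crh, the corticotropin-releasing hormone gene, rose from 0.977 and 0.789 CPM to 5.72 and 4.90 CPM, by 2.58 ± 0.305 (edgeR adjusted p = 0.000206). Adcyap1, which encodes the peptide PACAP, rose from 27.7 and 21.9 CPM to 43.9 and 37.5 CPM, by 0.72 ± 0.0975 (edgeR adjusted p = 0.00076). The other 3 that rose, named after their values were seen, were Pnoc (0.76), Nms (1.61) and Calca (0.91). At 5 and 7 weeks no gene of this list passed the test.

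Of 21 granin, convertase and vesicle genes 5 rose at 3 weeks in the edgeR fit, beside 0.434% of all genes tested, and none fell, while the list's median was 0.01. DESeq2 called 4 of these 5, without Pcsk1, and edgeR called 3 to 4 genes of the list when 1 library was left out. Ecel1 went from 36.9 and 50.3 CPM to 66.2 and 93.4 CPM in females and males (0.87 ± 0.0725, edgeR adjusted p = 5.21e-06). Scg2, which encodes secretogranin II, went from 410 and 353 CPM to 576 and 523 CPM (0.53 ± 0.0501, edgeR adjusted p = 1.73e-05). Ptprn, a membrane protein of dense-core vesicles, went from 322 and 393 CPM to 427 and 569 CPM (0.47 ± 0.0573, edgeR adjusted p = 0.0003). The other 2, named after their values were seen, were the convertase Pcsk1 (0.40) and carboxypeptidase E, Cpe (0.22).

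Of 22 peptide receptor genes, the receiving side of the system, 20 were tested and none was called at 3, 5 or 7 weeks. The smallest p-values at 3 weeks belonged to the neuropeptide Y receptor Npy2r, with a log2 fold change of -0.54 ± 0.241 (edgeR adjusted p = 0.327), and the mu opioid receptor Oprm1, at -0.44 ± 0.205 (edgeR adjusted p = 0.352). Of 19 activity-regulated genes tested, such as immediate early transcription factors, none was called at 3 weeks. Jund, a member of the AP-1 family, was at 0.34 ± 0.0816 at 3 weeks (edgeR adjusted p = 0.0568) and rose by 0.51 ± 0.0817 at 5 weeks (edgeR adjusted p = 0.0163) and by 0.58 ± 0.0819 at 7 weeks (edgeR adjusted p = 0.00253). Its call at 5 weeks was lost without the female library of 5 weeks (0.38) or the uninjured female library (0.41), and at 7 weeks without the uninjured female (0.48) or the male 7-week library (0.58). The synaptic gene Nptx2 was at 0.59 ± 0.150 at 3 weeks (edgeR adjusted p = 0.0717).

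**Figure D3:**
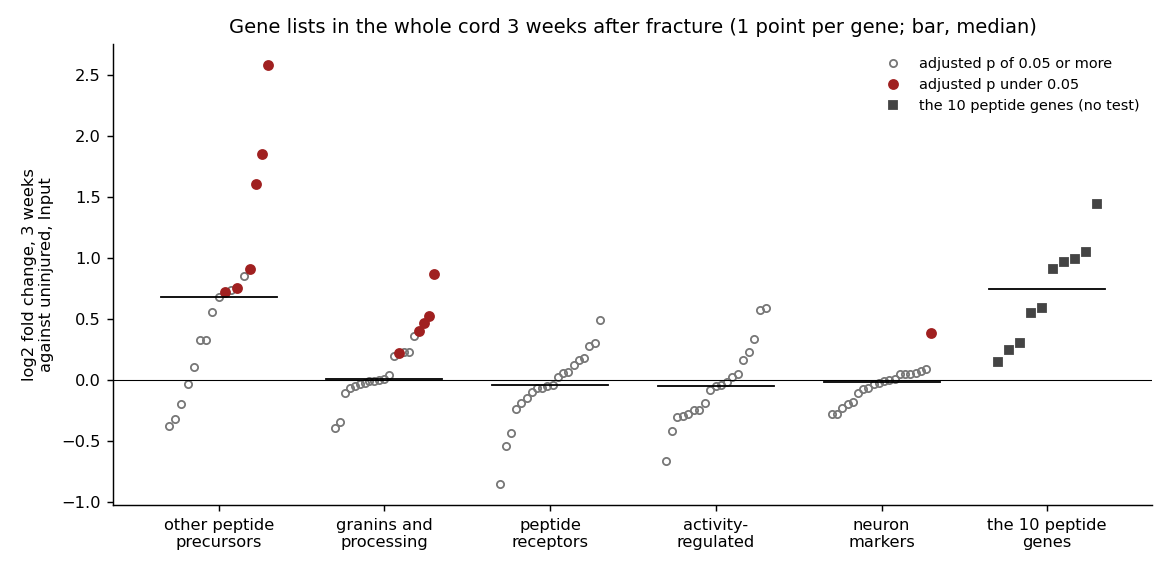
Log2 fold change at 3 weeks against uninjured in Input (y axis), 1 point per tested gene, for 5 gene lists and the 10 peptide genes (squares, no test). Filled red points have an adjusted p under 0.05 (6 of 17 other precursors, 5 of 21 granin and processing genes). The black bars are medians, 0.68 for other precursors and 0.75 for the 10 genes. All lists were chosen with earlier results of these data known.

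The Input calls rest on sex as a term of the model. With it 182, 18 and 36 genes of 16803 were called at 3, 5 and 7 weeks (1.08%, 0.107% and 0.214%). Without it no gene was called by edgeR at any of the 3 times, in the lists above either, while 385, 224 and 284 genes had an unadjusted p under 0.05 and DESeq2 was not run in that form.

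Cell markers in the same Input libraries were as follows, beside 1.08% of all genes called in either direction at 3 weeks. Pan-neuronal markers did not move as a group at 3 weeks: 8 of 20 were above 0, the median log2 fold change was -0.02, Gap43 alone was called (0.39), and their summed level was 16265 to 16997 CPM uninjured and 15545 to 16466 CPM at 3 weeks. Set against that sum, the 10 genes together amounted to 2.80% and 3.29% in the uninjured libraries and 5.13% and 6.42% at 3 weeks. Most of this share was Vgf (1.12% to 1.23% uninjured, 2.17% to 2.72% at 3 weeks) and Penk (0.619% to 0.888%, then 1.23% to 1.70%). The share of Cck was 0.189% to 0.197%, then 0.205% to 0.240%. Medians of excitatory and inhibitory interneuron markers were 0.09 and 0.10, with none called, and that of motor neuron markers was -0.20, with Chodl called lower (-0.53) and Calca, which is also a peptide gene, called higher (0.91). Microglia markers were above 0 in 12 of 12 genes (median 0.27, C1qb called), and their sum went from 377 to 455 CPM uninjured to 475 to 509 CPM at 3 weeks. The oligodendrocyte sum was lower at 3 weeks, 20102 to 21851 against 22959 to 25055 CPM, and Mal was called lower (-0.28). Of 18 astrocyte markers 4 were called lower, namely Gja1 (-0.29), Gjb6 (-0.59), Glul (-0.31) and S100b (-0.24), while the list's median was 0.02 and its sum overlapped, 13913 to 14230 CPM uninjured and 13468 to 14161 CPM at 3 weeks. Endothelial markers were above 0 in 8 of 10 genes (median 0.17, none called). Of the 5 Schwann cell markers tested Cdh19 was called lower (-0.90), and the median was -0.01. The part of these cell types in the peptide values was not tested.

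Primary afferents also make substance P and, after injury, galanin and neuropeptide Y, so markers of their cell bodies were read. Mrgprd was at 0 in all 8 Input libraries, where 3 counts would be 0.131 to 0.167 CPM, and Scn10a, Trpv1 and Prdm12 had at most 3, 4 and 1 counts in a library. Of 12 such markers 6 passed the filter and none was called at 3 weeks. Of these 6, 5 were above 0, with a median log2 fold change of 0.29, and their part in the peptide values was not tested. Ret (159 to 225 CPM) is also made by cord neurons.

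Males and females differed in the level of several of the peptides in Input. Of the 10 genes 6 were higher and 1 lower in males, but 46.2% of all genes were called in this comparison (22.9% higher, 23.3% lower), and male Input columns carry a header prefix that female ones lack, so sex and that series cannot be told apart. Grp differed most. It measured 4.33 to 7.47 CPM in females and 6.95 to 11.7 CPM in males, and was higher in the male library in 4 of 4 states, by 0.68 ± 0.118 on the log2 scale (edgeR adjusted p = 0.000159). Penk was higher in males by 0.38 ± 0.0448 (edgeR adjusted p = 3.33e-06), Sst by 0.29 ± 0.0488 (edgeR adjusted p = 9.81e-05) and Vgf by 0.21 ± 0.0436 (edgeR adjusted p = 0.000673). These 4 calls held in 8 of 8 fits without 1 library. Tac2 (0.27), Cck (0.21) and Nts (-0.24) were called too, but in only 2, 3 and 2 of those 8 fits, and not by DESeq2. Pdyn, Tac1 and Npy did not pass (0.09, -0.07 and 0.15).

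In the astrocyte pull-down all 10 genes were far below the whole cord. On a scale common to all 32 libraries the level of Penk was 123 ± 42.3 CPM over 8 Input libraries and 5.33 ± 3.50 CPM over 24 Trap libraries (means with SD). The same means were 210 ± 65.9 and 10.4 ± 4.11 CPM for Vgf and 67.4 ± 14.6 and 2.23 ± 1.63 CPM for Sst. The log2 differences, all called by edgeR, were -4.54 ± 0.175 for Penk, -4.32 ± 0.129 for Vgf and -4.96 ± 0.175 for Sst, and those of Tac1, Nts, Grp and Tac2 lay between -5.00 and -4.73. Pdyn (-3.71 ± 0.132) and Cck (-3.22 ± 0.133) were depleted less. In this comparison 44.3% of all genes were called lower. The 20 neuron markers were all lower, with a median of -3.70, and the 18 astrocyte markers all higher, with a median of 3.29, as the label of the pull-down says.

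Npy stood apart from the other 9 in this respect. It measured 10.7 ± 3.61 CPM in Input and 4.21 ± 1.09 CPM in Trap, a log2 difference of -1.35 ± 0.141 (edgeR adjusted p = 2.24e-10). Only 1 of the 20 neuron markers, Map2 at -0.25, was depleted less. As a share of the neuron marker sum of its own library, Npy was 0.159% to 0.492% in Trap and 0.0610% to 0.145% in Input, 2 ranges that do not overlap. For the other 9 genes the median share was lower in Trap than in Input, as for Penk (0.322% against 0.896%) and, by a little, for Cck (0.193% against 0.201%). Npy was singled out after its values were seen, and its difference from the other genes was not tested.

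**Figure D4:**
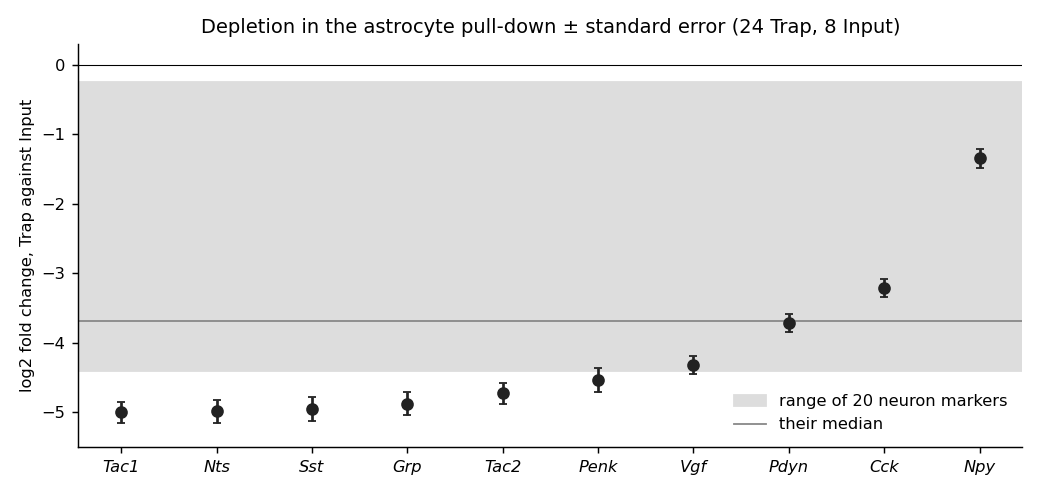
Log2 difference of Trap against Input (y axis) for the 10 genes (x axis, ordered by value), with bars of 1 standard error, over 24 Trap and 8 Input libraries. The grey band is the range of the 20 neuron markers (-4.41 to -0.25) and the line their median of -3.70; Npy lies at -1.35.

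After fracture the small amounts in Trap gave no call for any peptide gene. Grp did not pass the filter in Trap, with at most 13 counts in a library and none in 2 libraries, where 3 counts would be 0.136 to 0.140 CPM. At 3 weeks 0 of the 9 others were called by edgeR, beside 0.111% of 15380 genes (17 genes; 1329 had a p under 0.05 before adjustment), and 8 of the 9 folds were above 0, beside 50.8% of all genes. No gene of any kind was called at 5 or 7 weeks (425 and 438 at an unadjusted p under 0.05, and 1 and 0 by DESeq2).

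Penk in Trap ran from 2.74 to 4.76 CPM with a median of 4.19 in the 6 uninjured libraries, and from 3.73 to 17.3 CPM with a median of 6.13 at 3 weeks. The groups overlapped, and the log2 fold change was 0.97 ± 0.389 (edgeR adjusted p = 0.455). Vgf ran from 5.40 to 10.6 CPM (median 7.52) and from 8.39 to 24.02 CPM (median 10.6), at 0.65 ± 0.253 (edgeR adjusted p = 0.426). Pdyn ran from 0.823 to 1.38 CPM (median 0.967) and from 1.19 to 3.95 CPM (median 1.56), at 0.86 ± 0.322 (edgeR adjusted p = 0.377). In all 3 the highest value was that of 1 library, female 3 weeks replicate 3.

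That library was also highest in its state for neuron markers, at a sum of 1885 CPM against 951 to 1256 CPM in the other 5. The 10 genes summed to 68.4 CPM there, or 3.63% of its own neuron marker sum. This share too was the highest at 3 weeks, where the median was 2.25%. Penk stood at 0.919% of that sum against 0.322% to 0.635% in the other 5. Npy, at 0.236%, was within the range of the others (0.159% to 0.357%). What sets the library apart was not tested. Without female 3 weeks replicate 3 the 3-week log2 fold change was 0.39 for Penk, 0.49 for Pdyn, 0.35 for Vgf and 0.27 for Sst. That of Tac1 was 0.05 without this library and 0.81 with it. Nts turned from 0.17 to -0.80, Tac2 from 0.48 to -0.16 and Cck from 0.28 to -0.01. Npy in Trap went the other way at 3 weeks, at -0.23 ± 0.184 (edgeR adjusted p = 0.812), with 2.70 to 5.71 CPM uninjured and 2.00 to 4.44 CPM at 3 weeks.

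**Figure D5:**
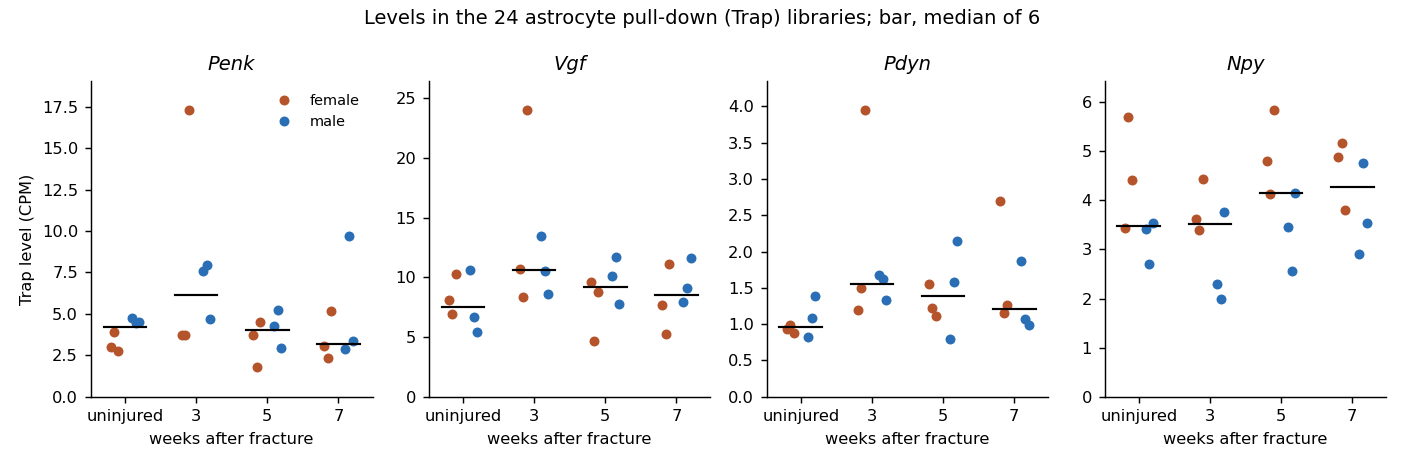
Level of Penk, Vgf, Pdyn and Npy (y axis, CPM, starting at 0) in the 24 Trap libraries by weeks after fracture (x axis), 1 point per library, females in orange and males in blue, with a bar at the median of 6. The single high 3-week point in the first 3 panels (17.3, 24.02 and 3.95 CPM) is the same female library.

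The sexes were also compared within Trap. The fracture effect did not differ between males and females for any gene at an adjusted p under 0.05 by edgeR at 3, 5 or 7 weeks (398, 466 and 303 genes at an unadjusted p under 0.05, and 1 gene each time by DESeq2). In the levels, 30 of 15380 genes were called between males and females (0.195%), none of them among the 9 peptide genes. Npy, named after its values were seen, was nearest, at 3.40 to 5.84 CPM in females (median 4.42, n = 12) and 2.00 to 4.76 CPM in males (median 3.44, n = 12). Its log2 difference, males against females, was -0.45 ± 0.126 (edgeR adjusted p = 0.198), and the ranges overlapped.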

How the data were processed

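The authors deposited RSEM estimated counts per gene for 55938 genes in 32 libraries. Per the submitters' processing notes, FastQC, Trim Galore, STAR and RSEM were used with GRCm38; versions and the annotation are not given in the sources used here. Libraries are poly-A selected, per the labels. In a library 6.21% to 8.53% of the values were not whole, and they were rounded here. Totals were 17981133 to 22907909 in Input and 17124034 to 23189228 in Trap, so 1 CPM is about 20 counts. Strand use in counting is not given, and genes overlapping on the other strand cannot be told apart. Symbols were matched for 55141 identifiers, and 797 had none. Coordinates and exon lengths are those of GENCODE M21.

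Tests used edgeR 4.0.16 in R 4.3.3 (filterByExpr, TMM, glmQLFit with robust estimation, glmQLFTest, 2-sided) with Benjamini-Hochberg adjustment over all genes tested. The Input fit had injury state and sex for 8 libraries (3 residual degrees of freedom, 16803 genes). The Trap fit had a mean for each sex and state for 24 libraries (16 residual degrees of freedom, 15380 genes). Trap against Input was adjusted for sex and state over 32 libraries (17100 genes). CPM values are TMM-scaled within Input or within Trap unless said otherwise, and standard errors come from the fits. The same scripts, tested on simulated data, recovered 84% of 100 genes changed by 1 log2 unit in Input at 3 weeks (16471 genes, 6 false calls) and 99% in Trap at 3 weeks (14989 genes, 10 false calls). The simulation gave every gene a dispersion of 0.02, changed only genes above a count floor, and held no difference by sex or series. Its rates therefore check the scripts and are not the rates in these data.

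The 10 genes and all lists were chosen with earlier results of these data known. Named genes were the 10, the nearest 2 genes to each by shape (some not printed), and from each list at most 3 called genes in each direction, or the 2 of smallest p if the list had no call, these without a claim of change. Not every gene the rule gives is printed. Alternatives were DESeq2 1.42.0, its size factors, no filter on low counts, no sex term, only the states compared, a replicate block, and leaving out each library. A fit without 2 Trap libraries that stood apart, a block within sex and list counts were added after the data were seen.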

Additional observations from a re-analysis of the deposited data

Results flagged for a closer look

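In 40 groups of 6 Trap libraries (10 genes in 4 states) 9 had a library far from the others. The rule flags about 1 in 20 groups of normally spread values. The groups here hold both sexes, and for some genes few counts, so that rate need not hold for them. Of the 9 flags, 8 were the same library, female 3 weeks replicate 3, so they are not independent of each other. It held 17.3 CPM of Penk against 3.73 to 7.98 CPM in the other 5 libraries of 3 weeks, 3.95 CPM of Pdyn against 1.19 to 1.68, and 24.02 CPM of Vgf against 8.39 to 13.4. It also held 8.04 CPM of Sst against 1.35 to 2.41, 2.35 CPM of Tac1 against 0.348 to 0.896, and 5.20 CPM of Cck against 1.75 to 2.80. Nts was at 1.38 CPM against 0.0497 to 0.380 and Grp at 0.577 CPM against 0.0560 to 0.150, both from few counts. Npy, at 4.44 CPM, was not far from the others there. The remaining flag was Grp at 0.502 CPM in male 5 weeks replicate 3, against 0.05004 to 0.198 CPM in the other 5.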

How the results depend on the processing

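Depth was similar in all libraries, and Grp, Nts, Tac2 and Tac1 in Trap rest on few counts. The 10 genes were lower in Trap than in Input in 120 of 120 values, each of them 1 gene under 1 alternative. The number of genes called in Input went to 0 at 3, 5 and 7 weeks without sex in the model, and leaving out 1 library gave 34 to 201 at 3 weeks (main 182), 7 to 49 at 5 weeks (18) and 16 to 50 at 7 weeks (36), with the lowest counts without the uninjured female, the female 5-week and the male 7-week library and the highest without the uninjured male library. DESeq2 called 3 of the other peptide precursors at 3 weeks in place of 6, with no adjusted p for 13 of the 17, Gal, Crh and Nms among them. Without sex in the model 0 of these and 0 of the granin and processing genes were called; leaving out 1 library gave 3 to 5 (3 without the male 3-week library) and 3 to 4 (3 without either female or the male 3-week library), and 0 to 3 activity-regulated genes (3 without the uninjured male library). In Trap at 3 weeks the 17 calls became 135 by DESeq2, 34 without the filter, 44 with the replicate number as a block, 77 with a block within sex, 106 without the 2 libraries that stood apart (female 3 weeks replicate 3 and male 7 weeks replicate 2), and 3 to 47 when 1 library was left out, the lowest without male uninjured replicate 2 and the highest without female 3 weeks replicate 3. At 5 weeks DESeq2 called 1 gene, as for the sex difference at each time. The 30 genes by sex in Trap became 93 by DESeq2, 12 with a block within sex, 46 without those 2 libraries and 18 to 47 with 1 library left out (18 without male 5 weeks replicate 1 or 2 or male uninjured replicate 3, 47 without male 7 weeks replicate 1). No peptide gene was called after fracture in Trap under any of these settings.

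Over the 84 pairs of samples with the same replicate number the median correlation of deviations was 0.0135. It was 0.0605 for the 36 pairs within a sex, 7 of them over 0.1, and -0.00977 for the 48 pairs across sexes, 0 of them over 0.1; 7 of 168 pairs with different numbers were over 0.1. Same-numbered pairs within a sex were thus over 0.1 more often than all pairs with different numbers. Those 168 pairs lie both within and across the sexes, so the sets are not alike. Pairs within a sex with different numbers were not counted apart. Except for female replicate 1, the Trap column headers carry a prefix of number and sex that the states share. Whether it marks a batch is not stated. The reported Trap fit had no block for these numbers, so its p-values take same-numbered libraries as unlinked. The counts with a block within sex are given above. In Input, with 1 library a sex and state, 47 values of the 10 peptide genes after fracture moved by more than 1 residual SD under an alternative and 223 did not. Leaving out 1 library turned the sign of Cck (-0.091 to 0.24) and Nts (-0.095 to 0.074) at 5 weeks, and of Cck (-0.18 to 0.10), Npy (-0.14 to 0.23), Nts (-0.13 to 0.085) and Pdyn (-0.039 to 0.37) at 7 weeks. Signs also turned for small Trap folds. Without those 2 libraries Cck was at -0.0122 (log2), Nts at -0.80 and Tac2 at -0.16 at 3 weeks, and Penk at -0.20 at 7 weeks. Cck at 7 weeks, at -0.00195 in the reported fit, was 0.00954 by DESeq2, 0.00161 without the filter, 0.000358 with only the states compared, 0.0115 with the replicate block and 0.0169 with the block within sex. Leaving out 1 library, the folds that turned ranged at 3 weeks from -0.011 to 0.45 for Cck, -0.80 to 0.43 for Nts and -0.16 to 0.70 for Tac2. At 5 weeks they ranged from -0.050 to 0.40 for Cck, -0.65 to 0.33 for Nts, -0.18 to 0.12 for Penk and -0.20 to 0.23 for Sst. At 7 weeks they ranged from -0.16 to 0.16 for Cck, -0.20 to 0.34 for Penk, -0.016 to 0.44 for Sst, -0.54 to 0.028 for Tac2 and -0.011 to 0.30 for Vgf. Pdyn between the sexes in Input ranged from -0.052 to 0.17. The causes were not tested.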
